A study of Mus musculus with 34 samples.

Results

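Crem, Rfx2, Tbpl1, Sox30, Mybl1 and Tcfl5 code for 6 of the transcription regulators that switch on the genes of late spermatogenesis. They are 6 of the 21887 protein-coding genes placed on the mouse assembly. Every deposited interval that overlapped the body of one of these genes, or the 1 kb beyond either end, was taken from the 24 interval lists of the study. This gave 918 of the 3711338 intervals, made up of 839 nucleosome calls and 79 subnucleosome peaks. The genes were chosen by name and not by a measured value, though with earlier results of these data known.

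The study profiled open chromatin by ATAC-seq, in which the transposase Tn5 cuts accessible DNA, in male mouse germ cells. It had 34 libraries in 12 groups, formed by 4 stages and 3 genetic backgrounds. MS stands for the fraction of meiotic cells, RS for round spermatids, ES for spermatids that elongate and condense, and Sp for mature sperm taken from the cauda epididymis. The backgrounds were SV129 mice, C57BL6 mice with intact GCN5+/+ alleles (WT), and C57BL6 GCN5-/- mice (cKO), in which homozygous floxed Gcn5 alleles were removed by a Stra8-Cre transgene. GCN5 is a histone acetyltransferase, and the Stra8 promoter is active in germ cells around the entry into meiosis, so other cell types keep their Gcn5. In SV129, the groups MS, RS and ES had 4 libraries, made as 2 technical repeats of 2 biological replicates, and the sperm group had 6. WT and cKO groups had 2 libraries. Reactions held 100000 cells for MS and Sp and 200000 for RS and ES, with 2.5 to 5.0 U of Tn5 in all groups. Between MS and RS and between ES and Sp, stage and cell number thus changed together. The protocol in the labels describes SV129 mice of 8 to 12 weeks, 11 for each collection, and fractions of at least 85% purity by velocity sedimentation. For the C57BL6 mice, age and number are not given in the sources used here.

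For each group there was 1 list of nucleosome calls, all 150 bp wide, and 1 list of subnucleosome peaks, which mark shorter stretches of open DNA. There were no values per library, so the spread between replicates is unknown here, and conditions could not be compared by a test. The difference between SV129 and WT, which both have intact Gcn5, is therefore given beside that between cKO and WT. SV129 and WT differ in strain and in number of libraries. Their subnucleosome lists also differ in scores and peak names, as given under data processing. Whether these lists were made in the same way is unknown. Read depth is unknown and the lists differ in length. At RS the subnucleosome list had 56480 peaks in WT, 29243 in SV129 and 4075 in cKO, and the nucleosome list had 253621, 230591 and 207681 calls. At Sp the nucleosome list had 8628 calls in WT, 13615 in SV129 and 347951 in cKO. A count over all genes or over the whole list, which shares the list's length, is given beside the counts of the 6 genes.

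In male germ cells, transcription is driven in successive waves. A-MYB, the product of Mybl1, is the master activator of genes of pachytene spermatocytes and of pachytene piRNA precursors, and TCFL5, a basic helix-loop-helix protein, acts in the same cells. RFX2, which binds X-box elements of genes for cilia and flagella, and SOX30, an HMG-box protein, carry the program from late meiosis into round spermatids. CREM, a relative of CREB that is switched to activator isoforms in the testis, and TBPL1 (also TRF2), a relative of the TATA-binding protein that works with TFIIA, act in round spermatids, where they are needed for genes such as those of protamines and transition proteins. In elongating spermatids histones give way to transition proteins and then protamines, and transcription stops.

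The 250 bases before the transcription start site of Rfx2, Tbpl1, Sox30 and Tcfl5 are shown because a subnucleosome peak lay across part or all of each in both intact backgrounds, and because they show how much of each promoter stayed within a peak without Gcn5. They are RefSeq sequence of GRCm38.p6, written in the direction of the gene, and the capitals mark the bases inside a subnucleosome peak of the cKO meiotic fraction.
Rfx2, chr17:56831009-56831258, minus strand: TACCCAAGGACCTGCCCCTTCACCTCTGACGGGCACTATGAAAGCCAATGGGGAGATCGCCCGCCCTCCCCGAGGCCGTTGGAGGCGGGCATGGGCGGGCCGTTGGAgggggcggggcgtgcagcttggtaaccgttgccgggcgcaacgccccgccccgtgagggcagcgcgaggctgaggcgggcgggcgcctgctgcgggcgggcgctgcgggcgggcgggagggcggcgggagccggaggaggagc
Tbpl1, chr10:22731448-22731697, minus strand: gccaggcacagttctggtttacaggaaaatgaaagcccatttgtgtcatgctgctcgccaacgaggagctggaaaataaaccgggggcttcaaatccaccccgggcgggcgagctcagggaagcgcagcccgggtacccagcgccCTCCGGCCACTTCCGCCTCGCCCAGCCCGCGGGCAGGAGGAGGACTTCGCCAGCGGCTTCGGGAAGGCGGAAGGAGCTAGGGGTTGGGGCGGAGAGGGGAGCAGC
Sox30, chr11:45980060-45980309, plus strand: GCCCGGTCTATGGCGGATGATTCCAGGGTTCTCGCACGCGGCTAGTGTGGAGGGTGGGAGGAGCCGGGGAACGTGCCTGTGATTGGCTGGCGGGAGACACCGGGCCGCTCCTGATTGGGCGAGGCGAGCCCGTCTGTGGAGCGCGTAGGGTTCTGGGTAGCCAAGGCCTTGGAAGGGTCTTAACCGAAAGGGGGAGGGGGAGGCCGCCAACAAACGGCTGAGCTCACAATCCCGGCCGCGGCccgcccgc
Tcfl5, chr2:180642692-180642941, minus strand: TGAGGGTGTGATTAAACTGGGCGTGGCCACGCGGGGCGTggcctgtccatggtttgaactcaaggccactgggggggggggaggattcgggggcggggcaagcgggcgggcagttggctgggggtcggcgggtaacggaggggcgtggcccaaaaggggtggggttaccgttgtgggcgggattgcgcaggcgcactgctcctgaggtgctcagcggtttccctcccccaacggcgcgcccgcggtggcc

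All 4 promoters are rich in G and C and in CpG. Over the 300 bases from 250 before to 50 after the start, G and C made up 75.7% in Rfx2, 66% in Tbpl1, 70% in Sox30 and 73% in Tcfl5, against a median of 52.7% over all promoters of the table. The same windows held 38, 24, 28 and 35 CpG, against a median of 7. In the WT meiotic fraction, peaks covered all 250 bases before the start of Rfx2, Sox30 and Tcfl5 and 134 of those before Tbpl1. In cKO they covered 107 at Rfx2, 105 at Tbpl1, 242 at Sox30 and 39 at Tcfl5. In SV129 they covered 250 at Rfx2 and Sox30, 172 at Tcfl5 and 72 at Tbpl1. At RS the cKO peaks covered 152 bases at Sox30, 49 at Rfx2 and none at Tbpl1 and Tcfl5, where WT peaks covered 107 and 250. Sox30 was thus the promoter with the most covered bases in cKO at both stages.

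The promoters were searched on both strands for 7 short motifs. These were the TATA box TATAAA and motifs of the kinds that CREB, RFX, MYB, SOX and TCFL5 proteins bind. A match is only a description of the letters. The full CRE palindrome TGACGTCA, to which CREB relatives bind, was in none of the 4 promoters and in 1.79% of all 32851 promoters of the same length. Its core part TGACG was found 224 bases before the start of Rfx2 and in 20.8% of all promoters, and that place lay inside a peak in 8 of the 12 subnucleosome lists, cKO at MS and RS included. The X-box part GTTGCC (12.5% of all promoters) was found in the promoter of Rfx2 itself, 116 bases before its start, inside a peak in 4 lists, none of them cKO. The E-box-like CACGCG (9.27%) was found 216 bases before the start of Sox30, inside a peak in 6 lists, and 223 before that of Tcfl5, inside a peak in 5. The MYB pattern AACNGNC (32.8%) was found at Rfx2, 177 and 153 bases before the start, and at Tcfl5, 142 before it. The SOX core ACAAT (31.0%) was found 25 bases before the start of Sox30. TATAAA (13.6%) was in none of the 4.

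The genes lie on 6 chromosomes of build GRCm38 (mm10). Crem spans chromosome 18 from 3266354 to 3337773, Rfx2 chromosome 17 from 56775897 to 56831008, Tbpl1 chromosome 10 from 22703877 to 22732666, Sox30 chromosome 11 from 45979069 to 46017992, Mybl1 chromosome 1 from 9667407 to 9700439 and Tcfl5 chromosome 2 from 180621956 to 180642691. Their lengths, 20.7 kb for Tcfl5 to 71.4 kb for Crem, all exceed the median of 17.2 kb over all protein-coding genes, and a longer gene has more room for an interval. For Rfx2, Tbpl1, Sox30 and Tcfl5 distances run from the start site of the RefSeq promoter table, positive into the gene. For Crem and Mybl1, distances are given from the upper gene end, the end with the larger coordinate. The upper end of Crem overlaps the long noncoding gene Gm6225, and the lower ends of Tbpl1 and Tcfl5 overlap the ends of Slc2a12 and Col9a3, so intervals there belong to both genes of a pair.

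Subnucleosome peaks were present at all 6 genes in the meiotic fraction and in round spermatids of both intact backgrounds, were present at 4 of the 6 in cKO round spermatids, and were absent from all 6 in elongating spermatids of every background. In sperm they came back at Rfx2 in both intact backgrounds and at Crem in SV129. At MS all 6 genes had a peak in SV129, WT and cKO, as did 60.5%, 63.4% and 44.9% of all genes. At RS the counts were 6, 6 and 4, against 55.8%, 64.1% and 14.9% of all genes. At ES they were 0 in all 3 backgrounds, against 0.964%, 0.507% and 0.535%. At Sp they were 2, 1 and 0, against 31.6%, 11.6% and 4.15%. Over all genes, too, the share was lowest at ES, and lower in cKO than in WT at MS, RS and Sp. The levels that follow are bp of the gene window covered by the peaks of a list.

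**Figure D1:**
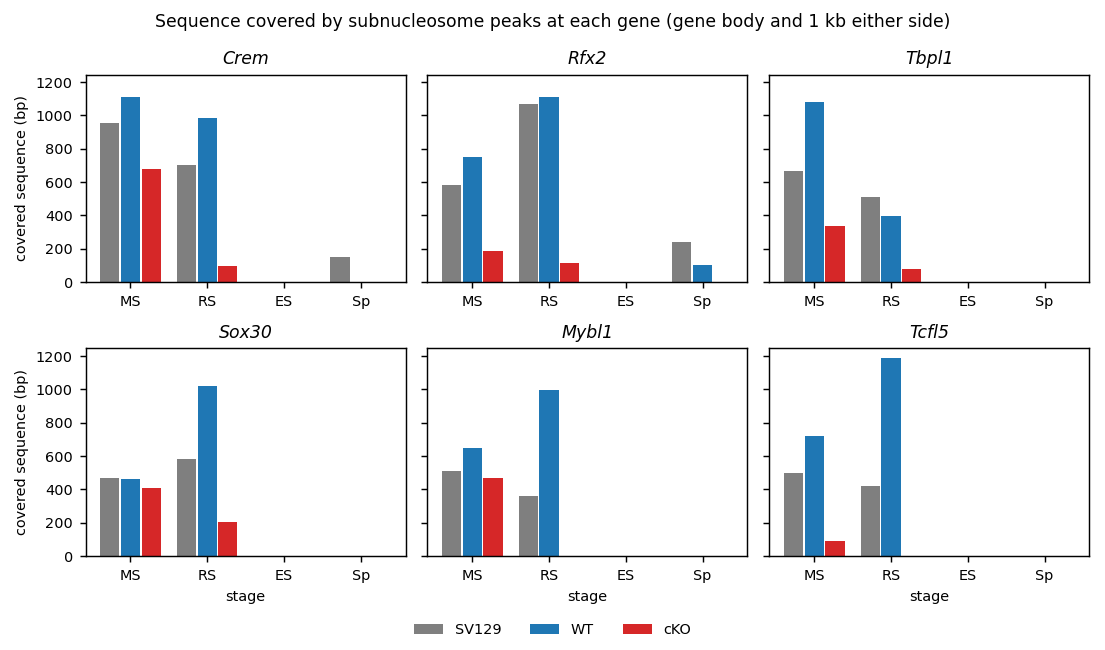
Bars give the bp covered by subnucleosome peaks at each gene and 1 kb either side, 1 deposited list per bar, by stage and background. At RS the cKO bars stand at 0 to 202 bp, below both intact backgrounds at all 6 genes, and at ES every gene stands at 0.

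Mybl1 and Tcfl5, the regulators of the pachytene stage, had no subnucleosome peak in cKO round spermatids. At Mybl1 the peaks covered 508 bp in SV129, 649 bp in WT and 469 bp in cKO at MS, and 363, 995 and 0 bp at RS. At Tcfl5 they covered 498, 723 and 88 bp at MS, and 420, 1186 and 0 bp at RS. At MS the cKO value was thus near that of SV129 for Mybl1 and far below both intact lists for Tcfl5. Of all genes with a peak in WT at RS, 76.7% had none in cKO, so a count of 2 of 6 genes without a peak is below that share. The intact backgrounds also differed at these genes: at RS, SV129 covered at least 2-fold less than WT at Mybl1 (2.74-fold) and Tcfl5 (2.82-fold) and at no other of the 6, against 42.0% of all genes.

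Rfx2 and Sox30, which act from late meiosis into round spermatids, kept a peak at their start in cKO at both stages. So did Tbpl1 at its start and Crem at its upper end. Peaks at Rfx2 covered 584 bp in SV129, 750 bp in WT and 187 bp in cKO at MS, and 1070, 1110 and 117 bp at RS. Peaks at Sox30 covered 467, 464 and 407 bp at MS, and 584, 1018 and 202 bp at RS. Sox30 was the member with the smallest difference at MS between cKO and WT, and Rfx2 covered 4.01-fold less in cKO than in WT. At RS Rfx2 had nearly the same value in both intact lists and a 9.49-fold lower one in cKO, and Sox30 a 5.04-fold lower one.

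At Crem and Tbpl1, the regulators of round spermatids, cKO had the lowest value at both stages, as at all the other members. At Crem peaks covered 957 bp in SV129, 1113 bp in WT and 677 bp in cKO at MS, and 700, 982 and 96 bp at RS. At Tbpl1 they covered 667, 1082 and 335 bp at MS, and 511, 395 and 80 bp at RS. Tbpl1 was the 1 member at which SV129 exceeded WT at RS. The cKO value was 10.2-fold below WT at Crem and 4.94-fold below it at Tbpl1.

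Over the 6 genes at MS, covered bp was at least 2-fold lower in cKO than in WT at 3 (Rfx2, Tbpl1 and Tcfl5), against 66.3% of all genes with a WT peak, and at least 2-fold lower in SV129 at none, against 21.0%. The median ratio of cKO to WT was 0.459 at the 6 genes and 0.356 over all genes, and that of SV129 to WT was 0.781 and 0.758. At RS covered bp was at least 2-fold lower in cKO at all 6, against 98.0% of all genes, and the median ratio was 0.102 against 0. No share is read as particular to the 6 genes.

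Every peak of cKO at the 6 genes lay on a peak of the intact lists: 10 of 10 at MS and 4 of 4 at RS overlapped a WT peak by 1 bp or more, as did 96.5% and 99.8% of the whole cKO lists. The cKO peaks lay within the wider WT peaks. At the start of Rfx2 the WT peak ran at MS from 398 bp before the start to 140 bp after it and the SV129 peak from 359 before to 140 after. The cKO peak there ran from 330 to 144 bp before the start, all of it upstream. At RS it was 117 bp wide, from 318 to 202 before the start, and in WT sperm a peak of 105 bp lay from 309 to 205 before it. The sequence around 260 bp before the start of Rfx2 was thus in a peak in 8 of the 12 lists, more than any other site of the 6 genes.

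**Figure D2:**
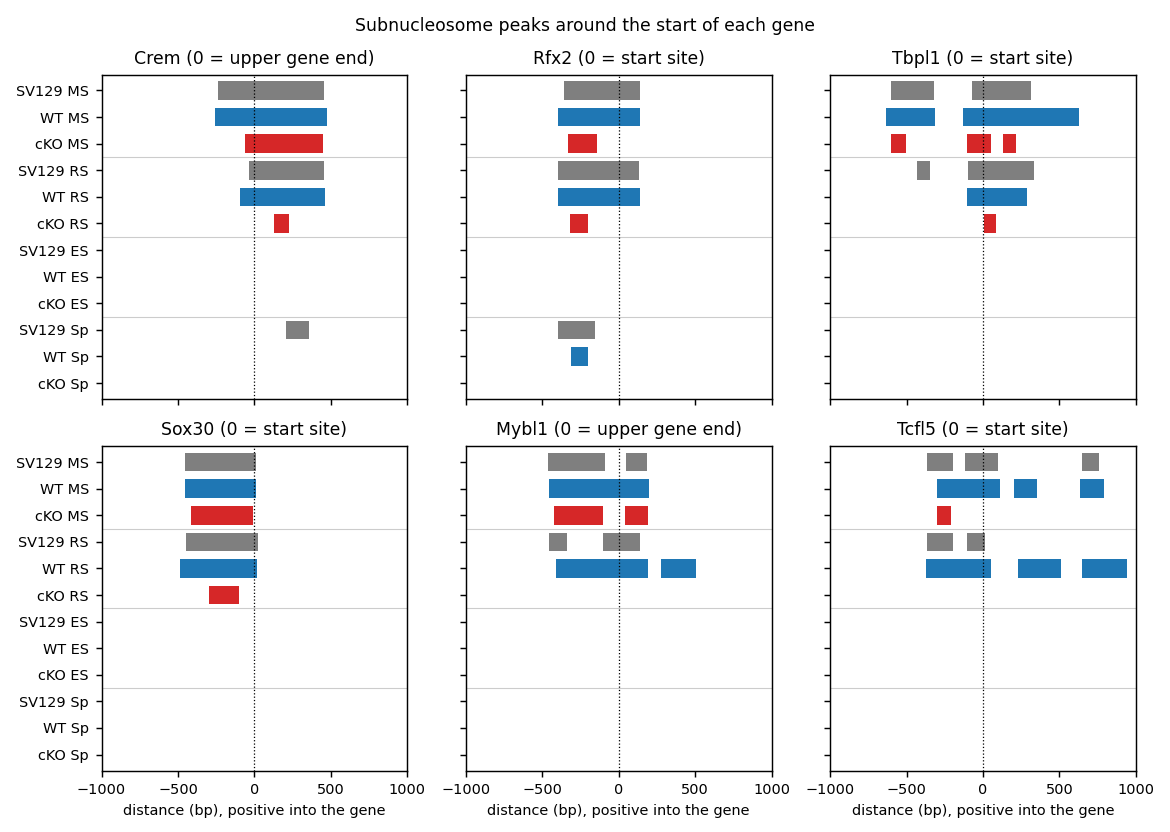
Horizontal bars are the subnucleosome peaks of each list from 1000 bp before to 1000 bp after the start site (Rfx2, Tbpl1, Sox30, Tcfl5) or the upper gene end (Crem, Mybl1), with distance in bp positive into the gene, gray for SV129, blue for WT and red for cKO. The red bars lie within the extent of the blue ones, and the rows of ES are empty.

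The other start peaks in cKO lay in different places relative to the start. At Sox30 the cKO peak at MS ran from 415 to 9 bp before the start, close to the WT peak, which ran from 454 before to 9 after. At RS it was 202 bp wide, from 300 to 99 before. At Tbpl1 the cKO peak at RS was 80 bp wide and lay 6 to 85 bp after the start, and at Crem it was 96 bp wide and lay 130 to 225 bp inside the gene. So 2 of the 4 cKO peaks at RS lay before the start and 2 after the reference point.

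The authors' score of each peak, whose meaning and direction are not stated in the sources used here, was used to order peaks within a WT or cKO list. Whether a high score marks a strong peak is unknown, and percentiles run from low to high values. Among the WT peaks at RS, the peak over the start or upper end stood at percentile 98.4 at Rfx2, 92.4 at Sox30, 91.5 at Tbpl1, 89.0 at Crem, 82.7 at Mybl1 and 75.9 at Tcfl5. The cKO peaks at RS themselves stood at percentile 62.8 at Sox30, 41.3 at Tbpl1, 38.5 at Rfx2 and 14.8 at Crem of their shorter list. When the WT list was limited to its 4075 peaks of highest score, as many as cKO had, the start peak of Rfx2 (538 bp) and a peak 27.9 kb inside Crem (302 bp) remained, and no start peak of the other 5 genes, while cKO had 4 start peaks. With 16087 peaks in both lists at MS, all 6 genes still had a WT peak, and Tcfl5 had 414 bp in WT and 88 bp in cKO.

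The peaks of the 12 lists fell on 23 separate sites. Of these, 11 near sites lay before the start or upper end or within 1 kb after it. The 12 far sites lay farther into the gene. The near sites include 1, with a peak only in WT at RS, centred at -1.11 kb from the start of Sox30. At RS peaks lay at 7 near sites in SV129, 10 in WT and 4 in cKO, and at 7, 10 and 0 of the far sites. At MS they lay at 8, 9 and 7 near sites, and at 3, 4 and 1 far sites. Of the 6 far sites in both intact lists at RS, none was in the cKO list. Over the whole WT list at RS, 10.8% of the peaks that overlapped an SV129 peak and lay farther than 1 kb from every listed start site overlapped a cKO peak, so a count of 0 of 6 is near that low share. Near start sites the share was 23.6%, and 4 of the 6 near sites of both intact lists were in cKO.

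The far sites include the places where the list of round spermatids held peaks that the meiotic list did not. At 3 sites both intact backgrounds had a peak at RS and no background had one at MS. The first lay 53.6 kb after the start of Rfx2, near the far end of the gene, with a peak of 196 bp in SV129 and 228 bp in WT. The second lay 26.7 kb after the start of Sox30, with 108 and 146 bp. The third lay 7.65 kb after the start of Tcfl5, with 131 and 189 bp. These are 3 of the 6 far sites of both intact lists at RS, and 38.8% of such far peaks of the whole WT list overlapped no MS peak of any background. None of the 10 sites of both intact lists at MS was without a peak in every RS list, against 23.3% of such peaks of the whole WT list.

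Crem had 2 far sites, both inside the gene. The site at 27.9 kb had 86 bp in SV129 and 164 bp in WT at MS and 212 and 302 bp at RS, with none in cKO at either stage. The site at 38.2 kb had 174 bp in SV129, 216 bp in WT and 166 bp in cKO at MS, and at RS 126 bp in WT and none in the others. It was the 1 far site of the 6 genes with a peak in cKO. Crem is known for transcripts that start inside the gene, and whether either site is such a start was not analysed here.

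**Figure D3:**
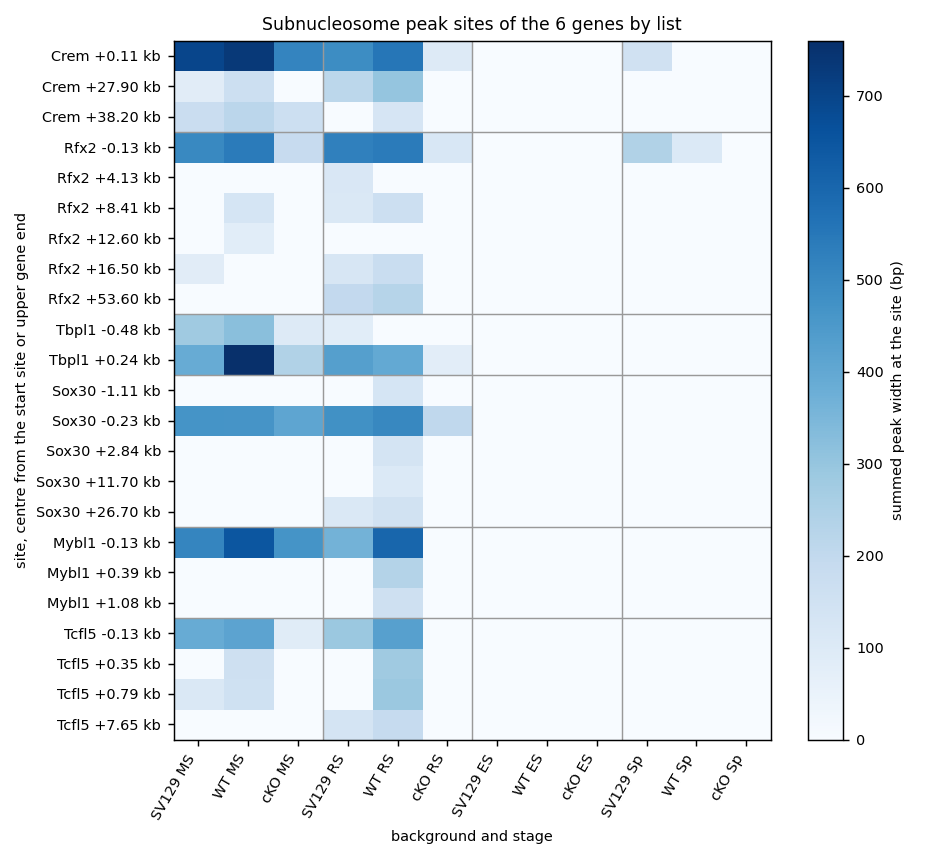
Each row is 1 of the 23 subnucleosome peak sites, labelled by gene and by the distance of its centre in kb from the start site or upper gene end, each column is 1 list, and the shade gives the summed peak width in bp. The cKO columns hold 8 sites at MS and 4 at RS, and the ES columns hold none.

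From round to elongating spermatids, the peaks of all 6 genes were missing in SV129 and WT, as at 98.4% and 99.2% of all genes with a peak, and those of the 4 genes of cKO as at 97.4%. In sperm the start peak of Rfx2 covered 240 bp in SV129, 105 bp in WT and 0 bp in cKO. That of Crem covered 150 bp in SV129 and 0 bp in the others. Rfx2 was the 1 member with a peak in sperm of both intact backgrounds. Of all genes with a WT peak in sperm, 81.9% had none in cKO.

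Nucleosome calls gave a second view of the same genes. Calls lay at all 6 genes at MS, RS and ES in the intact backgrounds, and there were few in sperm. At MS 6 genes in each of SV129, WT and cKO had a call, against 65.1%, 75.1% and 73.2% of all genes. At RS it was 6, 6 and 4, against 68.4%, 63.1% and 63.9%. At ES it was 6 in each, against 78.9%, 80.3% and 78.5%. At Sp it was 2, 0 and 5, against 10.4%, 8.79% and 71.7%.

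**Figure D4:**
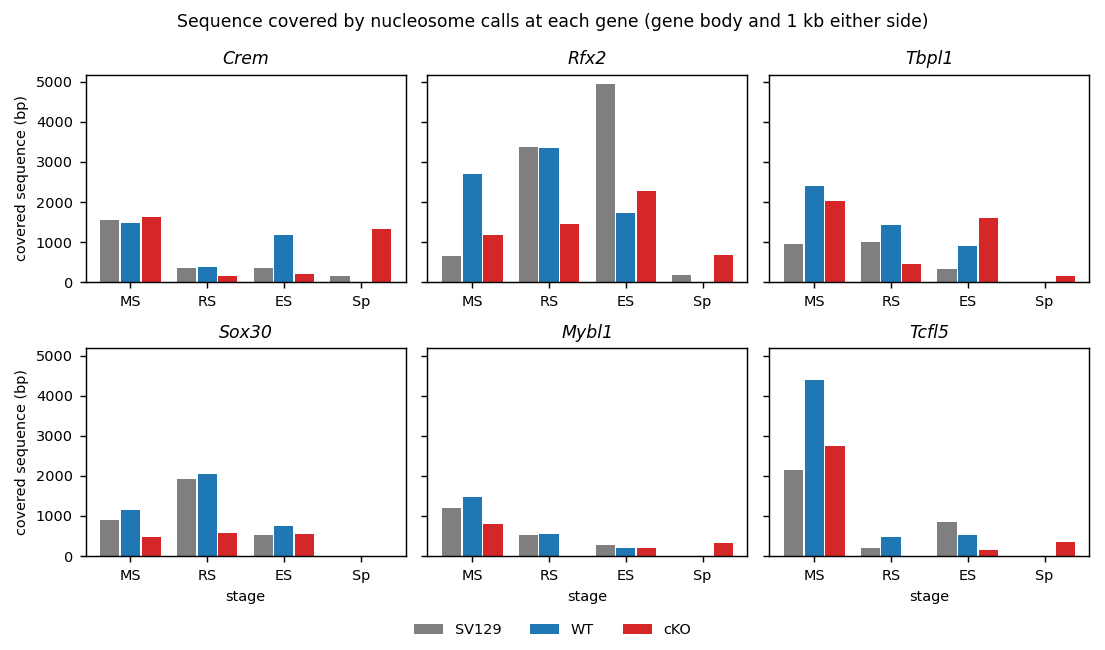
Bars give the bp covered by nucleosome calls at each gene and 1 kb either side, 1 deposited list per bar, by stage and background. At RS the SV129 and WT bars are close at most genes and the cKO bars lower at all 6, and at Sp the cKO bar is the highest at every gene but Sox30, which has none.

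In round spermatids the nucleosome calls of cKO covered less than those of WT at all 6 genes. Covered sequence was 340 bp in SV129, 365 bp in WT and 150 bp in cKO at Crem, and 3365, 3340 and 1457 bp at Rfx2. It was 1010, 1425 and 450 bp at Tbpl1, and 1915, 2042 and 570 bp at Sox30. It was 515, 540 and 0 bp at Mybl1, and 210, 470 and 0 bp at Tcfl5. The value in cKO was below both intact values at each gene. At 5 of the 6 genes SV129 stood within 1.41-fold of WT, and Tcfl5 was 2.24-fold below it.

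Covered sequence at least 2-fold lower than in WT was found in cKO at 6 of 6 genes, against 44.0% of all genes with a WT call, and in SV129 at 1 of 6 (Tcfl5), against 17.9%. The ratio of cKO to WT had a median of 0.297 at the 6 genes and 0.597 over all genes, and that of SV129 to WT 0.935 and 1. In this list cKO had 207681 calls to 253621 in WT, a much smaller gap than in the subnucleosome lists. Of the 6 genes, 2 had a call in WT and none in cKO, against 19.1% of all genes. With 1 list per group these values cannot be tested.

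Counted by call centres, the difference lay mostly around the start. In covered sequence, WT had 3754 bp and cKO 660 bp within 1 kb of the start site or upper end. Over the whole gene windows they had 8182 and 2627 bp, so part of the difference in bp lay farther away. Within 1 kb of the start site or upper end, the 6 genes had 50 call centres at RS in SV129, 60 in WT and 6 in cKO. Sox30 had 16, 20 and 4, Tbpl1 12, 18 and 2, Rfx2 10, 11 and 0, Mybl1 6, 7 and 0, Tcfl5 4, 3 and 0, and Crem 2, 1 and 0. Around the start sites of 17492 protein-coding genes, centres numbered 50708 in SV129, 52055 in WT and 17080 in cKO, a ratio of 0.328 between cKO and WT. No centre was left in cKO at 4 of the 6 genes, against 47.4% of the genes with one in WT, and in SV129 at none of the 6, against 12.2%. Farther than 1 kb from the start the 6 genes had 50 calls in SV129, 43 in WT and 25 in cKO, of which 20 in cKO were at Rfx2.

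**Figure D5:**
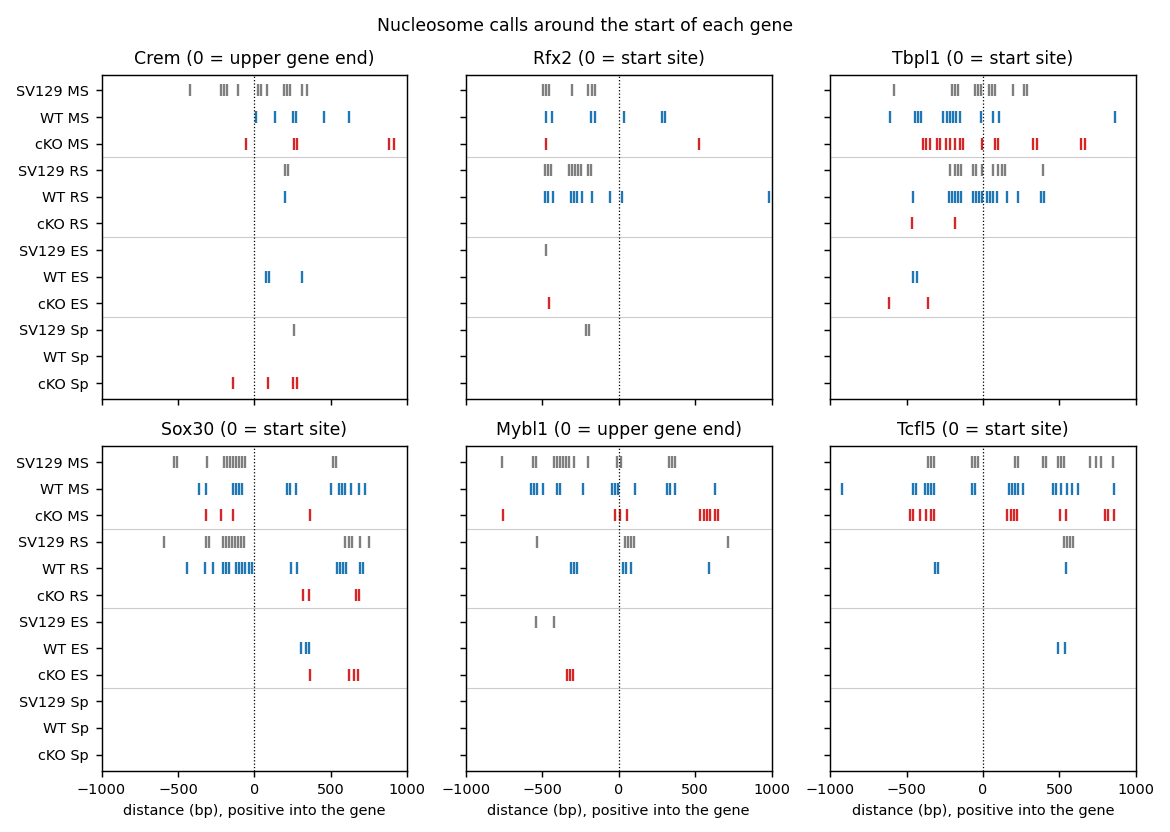
Ticks mark the centres of nucleosome calls of each list within 1000 bp of the start site or upper gene end, with distance in bp positive into the gene, gray for SV129, blue for WT and red for cKO. At RS the red rows hold 6 ticks, 2 at Tbpl1 and 4 at Sox30, where the blue rows hold 60.

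In the meiotic fraction the calls around the start differed less between backgrounds. The 6 genes had 79 centres within 1 kb in SV129, 79 in WT and 53 in cKO, while around all start sites the ratio of cKO to WT was 0.614. All 6 genes had a centre there in each background. Tbpl1 had 13, 14 and 17, Tcfl5 17, 21 and 15, and Mybl1 16, 15 and 10. Sox30 had 13, 16 and 4, Crem 13, 6 and 5, and Rfx2 7, 7 and 2. Tbpl1 was thus the 1 member with most centres in cKO, and Sox30 and Rfx2 were lowest relative to WT.

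Over whole genes at MS the spread between the intact backgrounds was as wide as that between cKO and WT. Covered sequence was at least 2-fold lower than in WT at 2 genes in cKO (Rfx2 and Sox30), against 31.2% of all genes, and at 3 in SV129 (Rfx2, Tbpl1 and Tcfl5), against 42.6%. At Tcfl5, the shortest of the 6, calls numbered 27 in SV129, 63 in WT and 32 in cKO and covered 2150, 4398 and 2738 bp. At Crem, the longest, calls covered 1545, 1485 and 1622 bp, so its 3 values were close to each other.

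Between the meiotic fraction and round spermatids the 6 genes went in different directions. Covered sequence was at least 2-fold lower at RS than at MS at Crem, Mybl1 and Tcfl5 in SV129, against 30.9% of all genes, and at the same 3 genes in WT, against 52.8%. At Tcfl5 it was 2150 bp at MS and 210 bp at RS in SV129, and 4398 and 470 bp in WT. Rfx2 and Sox30 had at least 2-fold more at RS than at MS in SV129, against 35.0% of all genes. At Rfx2 the values were 660 and 3365 bp in SV129 and 2692 and 3340 bp in WT, and at Sox30 890 and 1915 bp in SV129 and 1160 and 2042 bp in WT. In WT neither reached 2-fold, and no other member did (0 of 6, against 14.6% of all genes). In cKO 4 of the 6 genes were at least 2-fold lower at RS, against 51.7% of all genes, and none of the 4 genes with a call at RS was 2-fold higher, against 20.5%.

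In elongating spermatids few calls lay at the starts, and calls of different backgrounds seldom overlapped. Within 1 kb of the start the 6 genes had 3 centres in SV129, 10 in WT and 10 in cKO, of 75, 61 and 56 calls. Around the start sites of 17492 protein-coding genes, the mean per start site was 0.94 centres in SV129, 0.897 in WT and 1.02 in cKO. Of the 61 WT calls at the 6 genes, 11.5% overlapped an SV129 call, against 60.2% of the 103 at RS, and over the whole WT lists the shares were 7.47% and 40.5%. Rfx2 held 51 of the SV129 calls, which covered 4937 bp, with 1 of them within 1 kb of the start. The values at single genes differed between the intact backgrounds by up to 3.35-fold (Crem, 347 bp in SV129 and 1164 bp in WT), so the cKO values of 210 bp at Crem and 1591 bp at Tbpl1 have no clear yardstick.

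In sperm, most nucleosome calls at these genes were in the cKO list. WT had none at the 6 genes, SV129 had 1 at Crem and 2 at Rfx2, and cKO had 14 at Crem, 8 at Rfx2, 4 at Tcfl5, 3 at Mybl1, 1 at Tbpl1 and 0 at Sox30. Covered sequence in cKO was 1332 bp at Crem, 687 bp at Rfx2, 340 bp at Tcfl5, 327 bp at Mybl1 and 150 bp at Tbpl1. A call in cKO and none in WT was thus found at 5 of 6 genes, against 69.5% of all genes without a WT call, and in SV129 at 2 of 6 (Crem and Rfx2), against 7.96%. The cKO count stands near the share over all genes. The SV129 count rests on 3 calls. Per kb the cKO calls covered a median of 10.7 bp at the 6 genes and 11.5 bp over all genes.

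In sperm the calls of SV129 and cKO overlapped at Crem and not at Rfx2. All 3 SV129 calls lay at the start region, 1 centred 262 bp inside Crem and 2 centred 214 and 194 bp before the start of Rfx2, where SV129 sperm also had subnucleosome peaks. Of the 30 cKO calls, 4 lay within 1 kb of the start, all at Crem, and 26 lay farther away. Of these 30 calls, 2 overlapped an SV129 call (6.67%, against 2.31% of the whole cKO list), and they were centred 250 and 282 bp inside Crem. At Rfx2 the 8 cKO calls lay between 4504 and 45692 bp after the start, none at the start peak.

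From elongating spermatids to sperm, the calls of 4 genes in SV129 and of all 6 in WT were missing, against 87.6% and 89.6% of all genes, and in cKO those of 1 gene, Sox30, against 18.3%.

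Other genes of the same pathways were taken from 2 lists made from general knowledge of these regulators. The first holds 40 partners and paralogues of the 6 regulators, such as coactivators, RFX and SOX relatives and TFIIA subunits. At RS 34 of the 40 had a subnucleosome peak in SV129, 34 in WT and 8 in cKO (85%, 85% and 20%, against 55.8%, 64.1% and 14.9% of all genes). At MS it was 36, 35 and 31 (90%, 87.5% and 77.5%, against 60.5%, 63.4% and 44.9%), and in sperm 14, 3 and 2 (35%, 7.5% and 5%, against 31.6%, 11.6% and 4.15%). Nucleosome calls at RS were at 34, 31 and 35 of them (85%, 77.5% and 87.5%, against 68.4%, 63.1% and 63.9%). In sperm they were at 1, 3 and 33 (2.5%, 7.5% and 82.5%, against 10.4%, 8.79% and 71.7%). As over all genes, the cKO count at RS was low for subnucleosome peaks and not for nucleosome calls.

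The second list holds 29 genes that are described as controlled by 1 or more of the 6. At RS 26 of the 29 had a subnucleosome peak in SV129, 27 in WT and 8 in cKO (89.7%, 93.1% and 27.6%, against 55.8%, 64.1% and 14.9% of all genes). At MS it was 24, 24 and 16 (82.8%, 82.8% and 55.2%, against 60.5%, 63.4% and 44.9%). In sperm it was 3, 2 and 0 (10.3%, 6.9% and 0%, against 31.6%, 11.6% and 4.15%). With nucleosome calls it was 25, 25 and 20 at RS (86.2%, 86.2% and 69.0%, against 68.4%, 63.1% and 63.9%). In sperm nucleosome calls were at 3, 1 and 18 (10.3%, 3.45% and 62.1%, against 10.4%, 8.79% and 71.7%).

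Of the 69 genes of both lists, 58 had a subnucleosome peak in both intact backgrounds at RS, and 42 of these had none in cKO, near the 72.6% of all such genes. Those with most covered sequence in WT were Sox6, a SOX relative, with 499 bp in SV129 and 2082 bp in WT, Spag16, which codes for an axoneme protein, with 405 and 1648 bp, Tcf12, a helix-loop-helix gene, with 482 and 1523 bp, and Akap4, which codes for the main protein of the fibrous sheath of the sperm tail, with 662 and 1055 bp. At MS there were 12 of 58, against 23.9% of all such genes, led by the kinesin gene Kif17 (272 bp in SV129 and 450 bp in WT), Tdrd6 of the chromatoid body (83 and 429 bp), the meiotic entry gene Bhmg1 (319 and 410 bp) and Spz1 (120 and 322 bp). At RS 9 of the 52 genes with a nucleosome call in both intact backgrounds had none in cKO, against 16.3% of all such genes. Of those with a call in the other 2 backgrounds, 6 of 49 had none in WT and 3 of 46 none in SV129, against 11.8% and 5.3%. The 9 were led by Odf1 of the outer dense fibers (1000 bp in SV129 and 860 bp in WT), the glycolytic gene Pgk2 (470 and 580 bp), the acrosomal gene Acrv1 (360 and 553 bp) and Brdt, the testis bromodomain gene (868 and 530 bp).

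Markers of the labelled stages were checked by subnucleosome peaks, which mark open DNA and not expression, and each count is to be read against the share of all genes with a peak in that list, given above. All 9 meiotic markers had a peak in the 3 MS lists, and at RS 9 had one in SV129, 9 in WT and 4 in cKO. Of 7 markers of round spermatids, 7, 7 and 1 had a peak at RS, and 3, 6 and 4 at MS. Of 6 markers of elongating spermatids, 6, 5 and 0 had a peak at RS and none at ES or Sp in any background, so these peaks do not separate the stage from round spermatids by presence. Of 7 Sertoli cell markers, 2, 2 and 0 had a peak at MS and 2, 1 and 0 at RS, and in sperm 1 had one in SV129 and none in WT and cKO. Of 6 markers of Leydig and peritubular cells 2, 1 and 0 had one at MS, with 0, 1 and 0 at RS and 0, 1 and 0 in sperm. Of 6 of blood and immune cells 0, 1 and 0 had one at MS, with 1, 3 and 0 at RS and 1, 1 and 0 in sperm. Of 6 of epididymis 2, 2 and 2 had one at MS, with 1, 2 and 0 at RS and 1, 0 and 0 in sperm. Of 6 spermatogonial markers, 4, 6 and 4 had a peak at MS and 5, 6 and 1 at RS. At RS the cKO count was the lowest in all 8 marker lists, level with SV129 for Leydig and peritubular cells. The part of other cell types in the values of the 6 genes was not tested, and the share of a cell type cannot be told apart from the openness of its chromatin in these lists.

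The genes with the most similar pattern of covered sequence over all 24 lists, by Bray-Curtis similarity, were Ccdc9 (0.891) and Sf1 (0.853) for Crem, Ctdp1 (0.866) and Gatad2a (0.848) for Rfx2, and Ubl3 (0.884) and Ncapg2 (0.859) for Tbpl1. For Sox30 they were Tmx4 (0.876) and Dnajb14 (0.876), for Mybl1 Ccnl2 (0.881) and Klhdc3 (0.879), and for Tcfl5 Tollip (0.852) and Casd1 (0.849). The median similarity to all genes was 0.341 for Rfx2 to 0.437 for Tbpl1. None of the 6 regulators was among the genes named for another, and all 12 genes named are outside the lists above.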

How the data were processed

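ATAC-seq was made from 34 libraries in 12 groups. Per group, 1 list of nucleosome calls and 1 of subnucleosome peaks was deposited by the authors, with positions in GRCm38 (mm10) and a score per line. Neither the meaning or direction of this deposited score nor how calls were made or replicates combined is given in the sources used here. STAR 2.5.2a and MACS2 2.1.0.20140616 appear without a role in the submitters' processing notes. Peak names in the WT and cKO subnucleosome lists carry 1 library each and skip numbers: the lists hold 29.7% to 75.8% of the highest number, so they are selections. SV129 lists have a score of 0 throughout.

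Intervals were joined to the gene positions of RefSeq GRCm38.p6 when 1 bp or more overlapped the gene body or 1 kb either side, with Python 3.11.15 and numpy 2.4.6, and covered bp counts overlapping intervals once. The overlap code was checked on simulated data. Groups have 1 list each, so no test, SD or p-value is given, and comparisons use ratios of covered bp, a fold of 2, and the same count over all genes. Genes named besides the 6 are the 2 most similar genes for each, and, of the gene lists, at most 4 per comparison without an interval in 1 background and with one in the other 2, in order of covered bp in WT. The members, lists and motifs were chosen with earlier results of these data known. Alternatives were other distances, interval centres, gene ends or start only, merged calls, and selection by score. The counts around start sites of all genes, the shares of shared peaks and the start-only window were added after the data were seen. Motifs were searched in 300-base promoters.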

Additional observations from a re-analysis of the deposited data

Results flagged for a closer look

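At 4 genes the number of nucleosome calls differed between 2 stages in one direction in cKO and in the other in both intact backgrounds, and none of these differences could be tested, because each group has 1 list. The share of all genes with such opposite directions is not given here, so the 4 genes are not read as particular. At Crem, calls from ES to Sp went from 4 to 14 in cKO (10 more), from 4 to 1 in SV129 and from 12 to 0 in WT. At Tcfl5, calls between the same stages went from 1 to 4 in cKO (3 more), from 9 to 0 in SV129 and from 6 to 0 in WT. With 2 kb either side of Tcfl5, cKO had 4 calls at ES and 4 at Sp, and the opposite direction was gone. At Tbpl1, calls from RS to ES went from 3 to 19 in cKO (16 more), from 16 to 3 in SV129 and from 23 to 11 in WT. At Mybl1, calls from RS to ES went from 0 to 3 in cKO (3 more), from 6 to 2 in SV129 and from 7 to 2 in WT. The sperm nucleosome list of cKO held 347951 calls, against 13615 in SV129 and 8628 in WT, and the cKO lists at RS and ES held 207681 and 540655. Of genes with an ES call, 66.2% in cKO, 53.7% in SV129 and 58.4% in WT covered at least 2-fold more than at RS. Of genes with a sperm call, 18.5% in cKO, 7.18% in SV129 and 5.3% in WT covered at least 2-fold more than at ES.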

How the results depend on the processing

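The number of the 6 genes with an interval, and the number with 2-fold less covered sequence, were the same with 500 bp or 2 kb either side of the gene and with interval centres in place of overlaps. Gene bodies carry part of the counts. With only the 1 kb around the gene ends, genes with a nucleosome call numbered 2 in cKO at RS and 1 in cKO sperm. At ES such genes numbered 4 in SV129, 3 in WT and 3 in cKO. With only the start region they numbered 2 in cKO at RS, 2 in SV129 at ES and 1 in cKO sperm. Genes with nucleosome cover at least 2-fold below WT at MS numbered 0 in cKO and 1 in SV129 with the gene ends, and 0 in SV129 with the start region, where SV129 at RS also had 0. At RS 6 of 6 genes met this in cKO under each window tried but the gene ends, with 5. By score, whose direction is unknown, the upper 50% of the lists left 1 gene with a subnucleosome peak in cKO at RS. With WT and cKO at equal length, 2 had one in WT at RS. Merging overlapping calls moved 51 of 144 counts of intervals at single genes, and the 2 kb distance moved 2, from 3 to 5 at Mybl1 and from 1 to 4 at Tcfl5, both in cKO at ES. Smaller changes were not counted as moves, such as that from 9 to 13 at Rfx2 in SV129 at MS with 2 kb. No paired analysis was possible because the lists are 1 per group and not per library, and for the same reason leaving out replicates was not run. Depth is unknown, so a missing call at a gene is not an absence of open chromatin or nucleosomes there.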
